A study of Mus musculus with 8 samples.

Results

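Mouse bone marrow-derived macrophages that received IL-4 and IL-13 for 6 h were compared with macrophages of the same study left untreated for that time. The comparison covered all 19938 genes that could be named from exactly 1 gene symbol on an Affymetrix mouse gene array, out of 35556 probe sets, with the probe set of highest mean signal standing for each gene. It used 4 of the 8 arrays, 2 untreated and 2 given IL-4/IL-13. The other arrays held macrophages given IFN-gamma/LPS (2 arrays) or LPS together with IL-4/IL-13 (2 arrays), also for 6 h, and they enter the estimate of spread and the last comparisons below. The series set out to define the activation state and expression signature of each treatment. The labels name no strain, age or sex of the animals, no dose, and no separate culture behind an array. The p-values therefore reflect the spread of these samples alone, perhaps only technical spread, and 2 arrays per group limit the precision.

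IL-4 and IL-13 are cytokines of type 2 immunity that share the receptor chain IL-4R alpha. The chain pairs with the common gamma chain or with IL-13R alpha 1, the associated Janus kinases phosphorylate STAT6, and STAT6 dimers enter the nucleus and bind DNA. In macrophages this pathway is known for alternative activation, a state seen in helminth infection, allergy and tissue repair and marked by arginase, resistin-like and chitinase-like proteins and lectin receptors.

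Signal is given on the log2 scale, so that a difference of 1 is a doubling. Where 4 values follow a gene, they are untreated arrays 1 and 2 and then IL-4/IL-13 arrays 1 and 2. Changes are log2 differences, IL-4/IL-13 minus untreated, ± SE from limma (n = 2 arrays per group). A gene rose or fell where its Benjamini-Hochberg adjusted p over the 19938 genes was under 0.05. A call held where it was made again without each of these 4 arrays in turn, and a gene described as rising or falling held unless a sentence says otherwise. A level in these bulk samples cannot tell fewer cells of a type from less RNA per cell.

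IL-4/IL-13 changed 4020 genes, 20.2% of those tested. Of these 1561 rose (7.83%) and 2459 fell (12.3%), and the balance of directions turned with the size of change. At least 2-fold increases numbered 213 (1.07%) and decreases 274 (1.37%), while at least 4-fold changes comprised 48 increases and 14 decreases, and at least 8-fold changes 21 increases and 1 decrease. The median change of called genes was 0.51 in size, and the smallest was 0.15. Counts of rises and falls in every gene list below are to be read beside the shares of 7.83% and 12.3%. These shares include dim genes, which were seldom called. In most lists other than the cell type markers, most measured genes lay above the median signal of all genes in untreated cells. A list share above that of all genes may therefore go with signal level, which was not tested. No list was tested as a set. Across genes, which are no independent units, the paired arrays of a group had r = 0.9974 (untreated) and 0.9961 (IL-4/IL-13).

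Groups did not overlap in 38.3% of genes upward and 26.7% downward, so separate groups alone are common here.

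The calls were spread unevenly over signal level. With genes ranked by mean signal and split into 10 bins of about 1994, 31 rose and 11 fell in the dimmest bin, and 370 rose and 498 fell in the brightest. In bin 8 of 10, 191 rose and 513 fell. The median change was 0.12 in the dimmest bin, -0.12 in bin 8 and -0.05 in the brightest, against 0.07 over all genes.

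Fewer genes were called with any 1 array left out, while nearly all large changes kept their call. Each such fit leaves 1 array in a group, which by itself lowers the precision. The lower counts therefore do not show that calls rested on the values of particular arrays. Leaving out untreated array 1 left 2063 calls and leaving out untreated array 2 left 2380. Leaving out IL-4/IL-13 array 1 left 2821, and array 2 of that group 2244. In all, 1777 calls held, 646 upward and 1131 downward, among them 486 of the 487 changes of at least 2-fold.

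**Figure D1:**
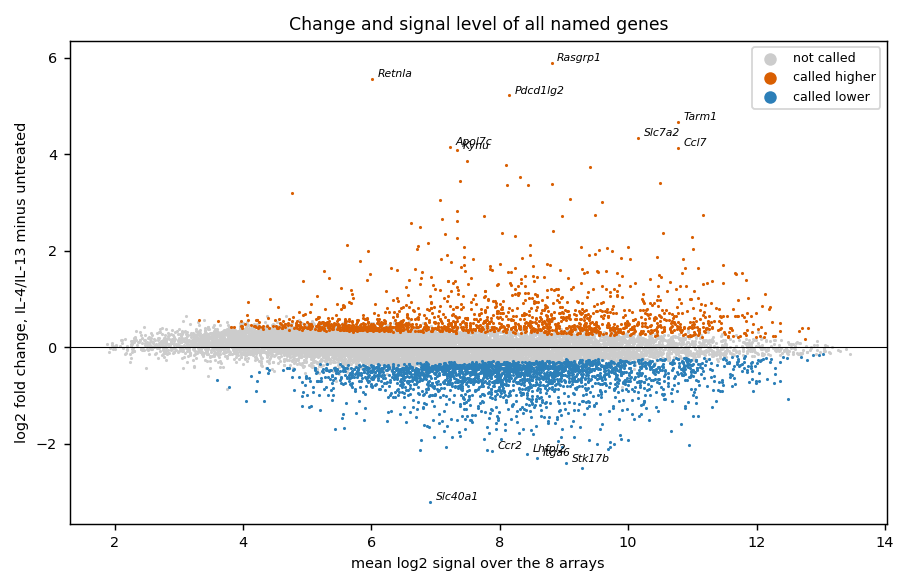
Change of each named gene (vertical axis, log2 fold change, IL-4/IL-13 minus untreated) against its mean log2 signal over the 8 arrays (horizontal axis), 1 point per gene, coloured by call. The largest increases, led by Rasgrp1 at 5.90, lie farther from 0 than the largest decrease, Slc40a1 at -3.20.

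Among the genes with the largest increases were a Ras activator, secreted proteins, membrane receptors for other immune cells, transporters and inhibitors of cytokine signalling. Rasgrp1, a guanine nucleotide exchange factor that activates Ras, read 5.24 and 5.63 in untreated and 11.34 and 11.32 in IL-4/IL-13 arrays. It rose 59.5-fold (5.90 ± 0.12, adjusted p = 5.45e-11). Retnla, which encodes the secreted resistin-like molecule alpha, read 4.67, 4.70, 10.15 and 10.33 (5.56 ± 0.19, adjusted p = 3.42e-09). Its untreated values were among the lower ones on the array, at the 14.5th percentile of all genes. Pdcd1lg2, which encodes PD-L2, a ligand of the inhibitory receptor PD-1 of T cells, read 4.70, 4.98, 10.12 and 10 (5.22 ± 0.11). Tarm1, a membrane receptor of myeloid cells, read 6.52, 6.93, 11.55 and 11.25 (4.68 ± 0.13). In each of these genes both treated arrays stood far above both untreated ones, and the replicates of a group differed by at most 0.41.

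The remaining genes of the 15 largest increases did varied things in the cell. Slc7a2, a transporter of cationic amino acids such as arginine, read 6.28, 6.14, 10.58 and 10.52 (4.34 ± 0.08). Ccl7, a chemokine that attracts monocytes, read 6.83, 7.01, 11.02 and 11.09 (4.14 ± 0.08). Kynu, kynureninase of tryptophan breakdown, read 5.09, 5.05, 9.27 and 9.02 (4.08 ± 0.11). All 3 genes had treated arrays at least 3.9 above the untreated ones. Flt1, a receptor of vascular endothelial growth factors, rose by 3.54 ± 0.12, Slc30a4, a zinc transporter, by 3.41 ± 0.07, and Gda, guanine deaminase of purine breakdown, by 3.39 ± 0.12. Apol7c, of the apolipoprotein L family, rose by 4.16 ± 0.18 and Tmem26, a membrane protein gene, by 3.78 ± 0.10. Socs2, Socs1 and Arg1 complete the group and are described with their pathways.

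The 15 largest decreases were in genes of varied function. Slc40a1, which encodes ferroportin, the exporter of cellular iron, read 10.09 and 10.11 in untreated and 6.95 and 6.86 in IL-4/IL-13 arrays. It fell 9.16-fold (-3.20 ± 0.11, adjusted p = 3.42e-09) and was the only gene with an at least 8-fold decrease. Stk17b, a kinase linked to apoptosis, read 10.38, 10.33, 8.18 and 7.72 (-2.41 ± 0.14), with treated arrays further apart than untreated ones. Itga6, the integrin alpha 6 chain, read 10.45, 10.35, 8.26 and 7.95 (-2.30 ± 0.12). The treated arrays of both genes stayed more than 2 below the untreated ones.

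Other genes of that group were Lhfpl2 (-2.21 ± 0.11), Reps2, an endocytosis protein (-2.13 ± 0.12), the potassium channel gene Kcnj2 (-2.07 ± 0.13), and St3gal5, the sialyltransferase that makes ganglioside GM3 (-2.07 ± 0.10). Xylt2, a xylosyltransferase that starts glycosaminoglycan chains, fell by 2.00 ± 0.08. Adgrl2, the adhesion G protein-coupled receptor latrophilin 2, had 8 probe sets. The brightest changed by -2.01 ± 0.10 and the others by between -0.93 and -2.58, all in 1 direction. Ccr2, Clec4n, Il1b, Nfkbiz, Clec4d and Hpgds completed the group.

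**Figure D2:**
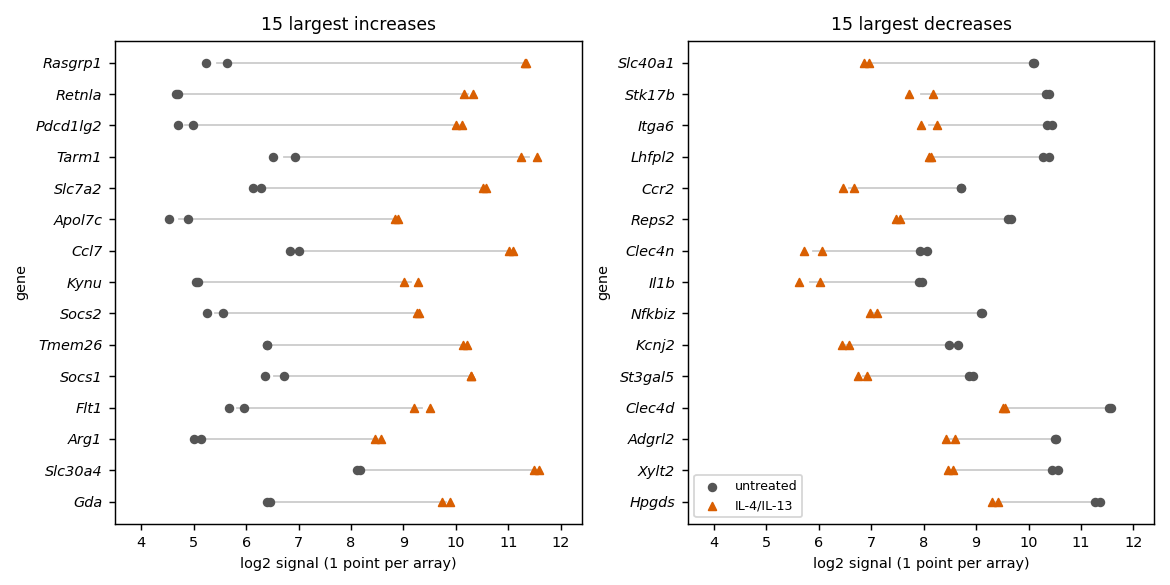
The 15 largest increases (left) and decreases (right) among genes that passed with separate groups, 1 point per array on a log2 signal axis, circles for untreated and triangles for IL-4/IL-13, with a line between the group means. Treated and untreated arrays of every gene are separated, with Stk17b the widest apart among treated replicates at 8.18 and 7.72.

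Promoter sequence was examined for the motif TTCNNNNGAA, the spacing known for STAT6, in the 250 bases before each annotated start (RefSeq, GRCm38.p6). It reads the same on both strands. A promoter entry existed for 10 of the 15 most increased genes, and 4 of them held the motif (40%), compared with 980 of 15614 measured genes with an entry (6.28%). These 4 promoters are shown because they hold the motif and belong to genes at the top of the response. The promoters found for Rasgrp1, Tarm1, Socs1, Flt1, Slc30a4 and Gda did not hold it. The motif is in capitals. Each sequence runs 5′ to 3′ on the gene's own strand, ending at the base before the first exon. Pdcd1lg2 lies at chr19:29410669-29410918 (+ strand), with the motif starting 82 bases before the start site. Retnla lies at chr16:48842359-48842608 (+ strand, 145 bases before), Apol7c at chr15:77533316-77533565 (- strand, 72 bases before) and Tmem26 at chr10:68723496-68723745 (+ strand, with motifs 227 and 41 bases before).
Pdcd1lg2: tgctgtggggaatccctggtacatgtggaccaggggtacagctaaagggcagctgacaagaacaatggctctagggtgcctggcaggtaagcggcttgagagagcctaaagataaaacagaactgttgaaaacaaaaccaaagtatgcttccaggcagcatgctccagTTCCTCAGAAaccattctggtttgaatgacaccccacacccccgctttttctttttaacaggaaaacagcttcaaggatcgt
Retnla: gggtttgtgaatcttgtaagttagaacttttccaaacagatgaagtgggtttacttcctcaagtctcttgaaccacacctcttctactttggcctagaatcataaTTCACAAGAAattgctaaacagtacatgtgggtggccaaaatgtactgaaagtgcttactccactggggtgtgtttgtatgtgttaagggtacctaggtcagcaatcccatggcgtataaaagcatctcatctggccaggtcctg
Apol7c: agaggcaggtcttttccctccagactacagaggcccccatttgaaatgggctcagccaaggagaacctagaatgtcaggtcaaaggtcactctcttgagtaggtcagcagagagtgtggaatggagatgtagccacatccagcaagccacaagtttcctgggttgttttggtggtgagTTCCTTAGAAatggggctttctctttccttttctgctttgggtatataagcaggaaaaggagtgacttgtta
Tmem26: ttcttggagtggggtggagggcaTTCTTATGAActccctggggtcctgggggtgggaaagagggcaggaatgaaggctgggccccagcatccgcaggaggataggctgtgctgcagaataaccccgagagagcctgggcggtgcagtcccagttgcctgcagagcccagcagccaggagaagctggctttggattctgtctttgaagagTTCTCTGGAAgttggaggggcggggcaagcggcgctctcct

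The motif's share changed with the size of the response chosen. It stood at 10.6% among genes that rose at least 2-fold (17 of 161), 6.74% among all that rose (83 of 1231), 5.33% among all that fell (105 of 1971) and 6.38% among genes with no call (792 of 12412). Of the 11 promoters found for the 15 most decreased genes, 0 held it. The shorter spacing TTCNNNGAA, known for other STAT proteins, is also its own reverse complement. It stood at 7.71% of all measured genes with an entry, 8.69% of all that rose and 7.2% of all that fell. Among changes of at least 2-fold it stood at 8.07% of rises and 9.0% of falls. It was in 1 of 10 promoters of the 15 most increased genes (Rasgrp1) and 1 of 11 of the 15 most decreased (Adgrl2). A promoter can hold both motifs, and their sites can share bases. A match is a description of letters and shows no binding. These shares were not tested.

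Along the receptor pathway, the changes with the greatest size were rises of Socs1, Socs2 and Cish, and receptor and kinase genes moved in both directions. Il4ra, the shared receptor chain, read 10.37, 10.37, 10.71 and 10.80 (0.39 ± 0.06, adjusted p = 0.000852). Il13ra1, its partner for IL-13, read 7.58, 7.43, 6.08 and 6.07 and fell (-1.43 ± 0.10, adjusted p = 1.31e-06). The receptor chains thus moved in opposite directions, with no overlap between groups in either. Il13ra2, the decoy receptor, stayed between 3.08 and 3.33 (0.19 ± 0.14, adjusted p = 0.352).

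Jak2 was the kinase gene with the largest change, at 8.45, 8.67, 9.62 and 9.43 (0.97 ± 0.10). Jak1 changed by -0.24 ± 0.08 (adjusted p = 0.0433), a call that failed without any 1 of the 4 arrays, and Tyk2 did not pass (0.25 ± 0.09, adjusted p = 0.07). Stat6 itself read 10.58, 10.50, 10.25 and 10.20 (-0.32 ± 0.07, adjusted p = 0.0101), and its call failed without untreated array 1 (adjusted p = 0.134) or IL-4/IL-13 array 2 (adjusted p = 0.0902). The phosphatase genes Inpp5d (-0.53 ± 0.09) and Ptpn6 (-0.44 ± 0.07), both known to restrain receptor signalling, fell. In all 2 of 11 receptor and kinase genes rose and 5 fell (median -0.24), with 3 falls left without untreated array 1 or IL-4/IL-13 array 2. Il2rg and Jak3 were not analysed here.

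Other STAT genes also moved. Stat2, known for interferon signalling, rose (9.02, 8.83, 10.16 and 10, 1.16 ± 0.09), and Stat4, known for IL-12 signalling, fell (6.62, 6.37, 5.08 and 5.21, -1.35 ± 0.12). Stat5b did not pass (-0.29). Of 5 STAT genes other than Stat6, 2 rose and 2 fell (median -0.26), against 7.83% and 12.3% of all genes. Rises numbered 1 without IL-4/IL-13 array 2, and falls 1 without untreated array 1 or either IL-4/IL-13 array.

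Of 8 measured genes of the SOCS family, feedback inhibitors of cytokine signalling, Socs1, Socs2 and Cish rose. Socs1, which blocks Janus kinases, read 6.72, 6.36, 10.28 and 10.28 (3.74 ± 0.12, adjusted p = 3.37e-09). Socs2 read 5.56, 5.26, 9.30 and 9.26 (3.87 ± 0.15), and a second, dimmer probe set of the gene gave 1.69. Cish, a family member induced by STAT proteins, read 5.50, 5.44, 8.81 and 8.86 (3.37 ± 0.09). Treated arrays of all 3 lay above every untreated array by more than 3. Socs3, known as the inhibitor of STAT3 signals, read 6.35, 6.63, 6.71 and 6.66 and did not pass (0.20 ± 0.10, adjusted p = 0.205). Socs5 (0.13), Socs6 (-0.28) and Socs7 (-0.10) did not pass either, and Socs4 was called lower (-0.32), a call that failed without any 1 of the 4 arrays.

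The phosphatase genes Ptpn2 (0.67 ± 0.15) and Ptpn1 (0.44 ± 0.10), which act on Janus kinases and STAT proteins, were called, but each lost its call without untreated array 2 (adjusted p = 0.0797 and 0.0986) and Ptpn2 also without IL-4/IL-13 array 1 (adjusted p = 0.087), Ptpn1 without IL-4/IL-13 array 2 (adjusted p = 0.0628). Of 14 inhibitor genes 5 rose and 2 fell (median 0.12), against 7.83% and 12.3% of all genes. The 3 SOCS family rises held, rises numbered 3 without untreated array 2, and falls 0 without any 1 of the 4 arrays.

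**Figure D3:**
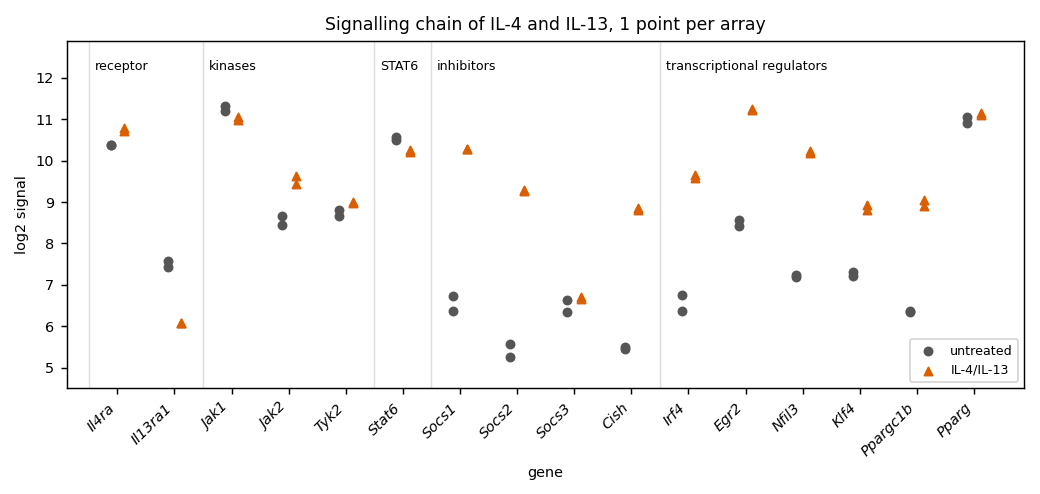
Log2 signal of genes along the IL-4/IL-13 pathway, ordered from receptor to transcriptional regulators, 1 point per array, circles for untreated and triangles for IL-4/IL-13. Socs1, Socs2 and Cish show wide gaps, Il4ra a gap of 0.39 and Il13ra1 a gap downward.

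Transcription factors known from alternative activation rose in 11 of 24 cases and fell in 5 (median 0.17), with 9 rises and 3 falls that held and 3 falls left without IL-4/IL-13 array 2. Irf4, a factor required for much of the STAT6 programme, read 6.76, 6.37, 9.65 and 9.59 (3.06 ± 0.15, adjusted p = 5.79e-08). Nfil3, a basic leucine zipper repressor, read 7.23, 7.18, 10.23 and 10.19 (3.01 ± 0.08). Egr2, a zinc finger factor, read 8.42, 8.57, 11.24 and 11.23 (2.74 ± 0.09). Each treated value of these genes exceeded the untreated ones by at least 2.6.

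Ppargc1b, the coactivator PGC-1 beta, followed (6.35, 6.36, 9.04 and 8.91, 2.62 ± 0.11), then Batf3 (1.83 ± 0.10), Klf4 (1.62 ± 0.12), Bhlhe40 (1.57 ± 0.11) and Myc (1.08 ± 0.11). Pparg, a nuclear receptor of alternative activation, was bright in every array (11.05, 10.92, 11.16 and 11.10) and did not pass (0.15 ± 0.07, adjusted p = 0.197). Falls included Bhlhe41 (-1.69 ± 0.16), the paralogue of Bhlhe40, Nr4a1, an orphan nuclear receptor (-1.50 ± 0.12), and Maf, a factor of resident macrophages (-0.73 ± 0.06).

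Secreted effectors of alternative activation rose in 8 of 19 cases and fell in 3 (median 0.12), with 6 rises and all 3 falls that held. Retnla led the list. Rnase2a, an eosinophil-associated ribonuclease gene, read 4.07, 3.65, 7.11 and 7.01 (3.20 ± 0.15). Chil3, the chitinase-like protein Ym1, read 5.33, 5.29, 6.68 and 6.14 (1.10 ± 0.17, adjusted p = 0.000651), with treated arrays 0.54 apart. Its near-identical copy Chil4 changed by 0.48 ± 0.13, a call that failed without any 1 of the 4 arrays, and the array may not separate the copies. Igf1, a trophic factor, was bright throughout and rose by 0.41 ± 0.07. F13a1 (-1.08 ± 0.11), a transglutaminase of clotting, and Thbs1 (-1.48 ± 0.07), a matricellular protein, fell. The IL-10 gene did not pass (0.34 ± 0.14, adjusted p = 0.11).

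Several genes of arginine uptake and use rose at the RNA level. Arg1, arginase 1, read 5.0, 5.14, 8.58 and 8.46 (3.45 ± 0.12, adjusted p = 5.34e-09), a 10.9-fold rise. Gatm, which makes the creatine precursor from arginine, rose by 1.39 ± 0.07, Srm, spermidine synthase, by 1.04 ± 0.09, and the transporter Slc7a1 by 0.78 ± 0.10. Ckb, creatine kinase B, fell by 0.69 on the log2 scale. Nos2, the nitric oxide synthase that competes for arginine, stayed between 5.60 and 6.01 (0.22 ± 0.10, adjusted p = 0.149), and Odc1, ornithine decarboxylase, changed by 0.02 ± 0.09. A second, dimmer probe set of Odc1 gave -0.25. Of 16 genes 7 rose and 4 fell (median 0.14), against 7.83% and 12.3% of all genes. The falls numbered 1 without either untreated array and 2 without IL-4/IL-13 array 1.

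CC chemokines, which attract monocytes, eosinophils and T cells, rose in 6 of 18 cases and fell in 3 (median 0.10), against 7.83% and 12.3% of all genes. These directions were not tested against each other. Ccl2, a second monocyte attractant, read 7.53, 7.98, 10.02 and 10.22 (2.37 ± 0.13). Ccl24, the eosinophil attractant eotaxin-2, read 5.76, 5.54, 7.82 and 7.74 (2.13 ± 0.11). Both resembled Ccl7 in that no treated array reached the untreated range. Ccl8 (1.29 ± 0.14), Ccl17, a ligand of CCR4 (1.20 ± 0.17), and Ccl12 (0.98 ± 0.16) followed. Ccl22, the other CCR4 ligand, read 5.67, 5.61, 5.69 and 5.80 and did not pass (0.11 ± 0.10, adjusted p = 0.465). Ccl3 (-1.08 ± 0.05) and Ccl4 (-0.56 ± 0.09), both inflammatory chemokines, fell. The third fall, Ccl6 (-0.23), failed without any 1 of the 4 arrays. The Ccl2, Ccl7, Ccl8 and Ccl12 genes are close relatives.

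Of 11 CXC chemokines 4 fell and held, and 0 rose in limma, also at an unadjusted p under 0.05 (median -0.01). They were the neutrophil attractant Cxcl2 (7.83, 7.68, 6.41 and 5.91, -1.60 ± 0.15), the interferon-induced Cxcl10 (-1.07 ± 0.09), Cxcl14 (-0.81 ± 0.13) and the scavenger chemokine Cxcl16 (-0.81 ± 0.07). Over all genes 12.3% fell and 7.83% rose.

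Receptors that guide macrophage migration fell in part. Of 16 chemoattractant receptors 9 fell and 0 rose, against 12.3% and 7.83% of all genes, every fall held, and the median was -0.58. At an unadjusted p under 0.05 in limma the higher genes also numbered 0. Ccr2, the receptor for Ccl2 and Ccl7, read 8.71, 8.72, 6.67 and 6.46 (-2.15 ± 0.13, adjusted p = 2.92e-07). The sphingosine-1-phosphate receptor gene S1pr1 read 9.94, 10.02, 8.69 and 8.35 (-1.46 ± 0.12), and Cxcr4, the receptor for Cxcl12, read 11.32, 11.31, 10.13 and 10.18 (-1.16 ± 0.08). In all 3 genes the treated arrays lay more than 1.1 below the untreated ones. Ccr3 (-0.98 ± 0.13), Ccrl2 (-0.75 ± 0.09), Cx3cr1 (-0.74 ± 0.14), the complement receptor gene C5ar1 (-0.59 ± 0.08) and Ptafr (-0.58 ± 0.07) fell less, and 7 receptor genes did not pass, among them Ccr1 (0.01), Ccr7 (0.13) and C3ar1 (0.05).

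Lectin and scavenger receptor genes moved in both directions. Of 25 measured 6 rose and 9 fell, all of which held (median -0.08). The galactose-type lectin gene Mgl2 read 6.45, 6.24, 8.62 and 8.25 (2.09 ± 0.14) and its relative Clec10a rose by 1.46 ± 0.15. Olr1, a receptor of oxidised lipoprotein, read 4.87, 4.78, 7.33 and 7.11 (2.40 ± 0.10). Clec7a, the beta-glucan receptor Dectin-1, rose by 0.91 ± 0.07, and Mrc1, the mannose receptor, was bright in untreated cells and rose by 0.72 ± 0.08 (11.80, 11.73, 12.47 and 12.50).

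A group of lectin genes of fungal and damage sensing fell. Clec4d read 11.57, 11.53, 9.55 and 9.52 (-2.02 ± 0.08), Clec4n, Dectin-2, 8.07, 7.93, 6.05 and 5.72 (-2.12 ± 0.13), and Clec4e, Mincle, 7.54, 7.67, 5.90 and 5.45 (-1.93 ± 0.13). Clec4a2 (-1.30 ± 0.09), Stab1 (-1.39 ± 0.08), Colec12 (-1.15 ± 0.09) and the class A scavenger receptor gene Msr1 (-1.13 ± 0.07) fell as well. Cd163, the haemoglobin scavenger receptor, did not pass (0.10).

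Receptors for apoptotic cells and antibody fell in 8 of 19 cases and rose in 2 (median -0.14), with 5 falls that held. Mertk, the kinase receptor that mediates uptake of apoptotic cells, read 10.75, 10.72, 9.22 and 9.23 (-1.51 ± 0.08). Its bridging ligand Gas6 (-0.79 ± 0.09) and the engulfment receptor gene Lrp1 (-0.92 ± 0.08) fell too. Fcgr2b, the inhibitory Fc receptor, rose (10.89, 10.83, 12.38 and 12.39, 1.53 ± 0.06) while the activating receptor gene Fcgr1 fell (-0.33 ± 0.06). Without untreated array 1, falls numbered 5, and without untreated array 2, rises numbered 1.

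Immune ligand and inhibitory receptor genes moved in both directions, against 7.83% rising and 12.3% falling of all genes. Beside Pdcd1lg2, Cd274 (PD-L1) read 8.43, 8.26, 10.39 and 10.38 (2.04 ± 0.08) and Cd40, the receptor for the T cell protein CD40 ligand, read 8.00, 7.91, 10.66 and 10.73 (2.74 ± 0.07). Cd86 rose (1.33 ± 0.10) while Cd80, the other ligand of CD28, fell (7.95, 8.10, 7.02 and 6.85, -1.09 ± 0.10). The paired immunoglobulin-like receptor genes Pilra (-1.70 ± 0.11), Pilrb1 (-1.31 ± 0.11) and Pirb (-0.93 ± 0.08) fell. Of 23 genes 6 rose and 10 fell (median -0.29), with 5 rises and 6 falls that held.

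Toll-like receptor genes and their partners fell in 9 of 20 cases and rose in 2 (median -0.14), against 12.3% and 7.83% of all genes. Tlr13, a sensor of bacterial ribosomal RNA, read 11.91, 11.97, 10.14 and 10.12 (-1.81 ± 0.09). Tlr2, the lipopeptide receptor, read 9.87, 9.73, 8.16 and 8.05 (-1.70 ± 0.10), and Cd14, the LPS co-receptor, 11.34, 11.34, 9.93 and 9.91 (-1.42 ± 0.08). Irak2 (-1.09 ± 0.08) and Irak3 (-1.05 ± 0.08), of the IL-1 receptor-associated kinase family, and Tlr3 (-0.72 ± 0.08) fell. Tlr4 changed by 0.41 ± 0.10 (adjusted p = 0.0141), a call that failed without any 1 of the 4 arrays. Falls held in 7 genes and rises in 0, with 0 rises left without untreated array 2 or IL-4/IL-13 array 2 and 1 without either other array.

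Genes driven by NF-kB were split, against 12.3% falling and 7.83% rising of all genes. Of 32 measured 12 fell and 7 rose (median 0.09), and 6 falls and 2 rises held. Il1b, the inflammatory cytokine, read 7.96, 7.91, 5.62 and 6.03 (-2.11 ± 0.11), Nfkbiz, a nuclear cofactor of NF-kB, 9.11, 9.10, 7.10 and 6.97 (-2.07 ± 0.08), and Nlrp3, an inflammasome sensor, 8.72, 8.88, 7.76 and 7.63 (-1.11 ± 0.09). Il18 (-1.13 ± 0.11) and Tnf (-0.72 ± 0.08) fell. Ier3, a stress-response gene, rose by 1.65 ± 0.11 and Rel, an NF-kB subunit, by 1.02 ± 0.06. Rises numbered 3 without untreated array 1. Leaving out untreated array 2 or IL-4/IL-13 array 1 left 4 rises and 7 falls each.

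Guanylate-binding protein genes, which are known as targets of interferon gamma, rose in macrophages to which no IFN-gamma had been added. All 8 measured genes of the guanylate-binding and immunity-related GTPases rose, 7 held, and the median was 1.53. Gbp5 read 6.01, 5.95, 8.15 and 7.93 (2.06 ± 0.09), Gbp9 6.95, 6.73, 8.95 and 8.77 (2.02 ± 0.13), Gbp4 5.04, 5.66, 6.95 and 6.96 (1.61 ± 0.15) and Iigp1 6.63, 6.47, 8.35 and 7.93 (1.59 ± 0.12). Irgm1 rose least, by 0.24 ± 0.07, a call that did not hold, and centring arrays on their medians left 7 of 8. The Gbp genes are near copies of each other and may share probes. Of 15 listed genes only these 8 were measured, and Gbp2, Gbp6, Irgm2, Igtp, Tgtp1, Ifi47 and Gvin1 were not analysed here. Over all genes 7.83% rose.

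Antigen processing for MHC class I rose in 9 of 14 genes with 0 falls (0 also at an unadjusted p under 0.05 in limma), and 5 rises held. The immunoproteasome genes Psmb10 (9.75, 9.66, 11.24 and 11.24, 1.54 ± 0.08), Psmb8 (0.72 ± 0.10) and Psmb9 (0.71 ± 0.08), the peptide transporter gene Tap1 (0.65 ± 0.07) and the class I regulator gene Nlrc5 (0.58 ± 0.10) rose, and B2m was flat (0.04). Other probe sets of Nlrc5 changed by between 0.08 and 0.83. H2-K1, H2-D1, H2-Q7 and H2-T23 were not analysed here. Over all genes 7.83% rose and 12.3% fell. Without untreated array 2, rises numbered 5. Among MHC class II genes 1 of 15 rose, H2-DMa (0.84 ± 0.11), 1 fell and lost its call without 3 of the 4 arrays (both untreated arrays and IL-4/IL-13 array 2), and the class II chain genes H2-Aa (-0.24) and H2-Ab1 (-0.22) did not pass.

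Interferon-stimulated antiviral genes were mixed, with 8 of 27 up and 6 down (median 0.05), of which 2 rises and 1 fall held. Zbp1, a nucleic acid sensor, read 8.43, 8.20, 9.83 and 9.77 (1.49 ± 0.09) and Irf7, the interferon regulatory factor, 9.97, 9.81, 11.31 and 11.13 (1.33 ± 0.08), while Rsad2, viperin, fell (-0.68 ± 0.10). Rises numbered 3 without untreated array 2 or IL-4/IL-13 array 1 and 5 without untreated array 1, and falls numbered 1 without untreated array 1 or IL-4/IL-13 array 2.

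Trophic factor genes included several rises, against 7.83% rising and 12.3% falling of all genes. Of 27 measured 8 rose and 6 fell (median 0.20), with 7 rises and 4 falls that held. Beside Flt1, the neuregulin gene Nrg1 read 5.74, 5.43, 7.54 and 7.38 (1.88 ± 0.12), Pdgfa 8.64, 8.60, 10.01 and 9.90 (1.34 ± 0.10) and Hbegf, a ligand of the EGF receptor, 6.38, 6.30, 7.49 and 7.43 (1.12 ± 0.09). Pdgfb fell (-1.05 ± 0.10), as did Vegfa (-1.24 ± 0.13) and Hgf, hepatocyte growth factor (8.78, 8.71, 7.33 and 7.35, -1.41 ± 0.10). Within the platelet-derived growth factor genes Pdgfa and Pdgfc (0.72 ± 0.10) rose and Pdgfb fell.

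Matrix and protease genes mostly fell where they changed, with 12 of 29 down and 3 up (median -0.21) and 5 falls and 2 rises that held. Sdc4, a cell surface proteoglycan, rose (10.01, 9.87, 11.50 and 11.46, 1.54 ± 0.06) and the collagenase gene Mmp13 rose by 0.55 ± 0.09. Mmp19 (-0.73 ± 0.09), the urokinase receptor gene Plaur (-0.68 ± 0.08) and Thbs1 fell. Falls numbered 6 without untreated array 1 or IL-4/IL-13 array 2 and 7 without untreated array 2.

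Integrin and adhesion genes rose in 7 of 23 cases and fell in 9 (median 0.12), with 5 in each direction that held. Pecam1, an adhesion molecule of endothelial and myeloid cells, read 6.86, 6.85, 9.27 and 8.98 (2.27 ± 0.11). Itgb8 (0.96 ± 0.12), Itga1 (0.92 ± 0.15) and Itgb3 (0.83 ± 0.11) rose, and Itga6 and Itga4 (10.80, 10.83, 9.13 and 9.05, -1.73 ± 0.07) fell. Falls numbered 5 without untreated array 1.

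Genes of macrophage fusion rose in 8 of 20 cases and fell in 5 (median 0.01), against 7.83% and 12.3% of all genes. Cdh1, E-cadherin, rose by 1.09 ± 0.11 and Ocstamp, a fusion protein of osteoclasts, by 0.81 ± 0.12, while Dcstamp, its partner in fusion, fell (-0.68 ± 0.12). Without untreated array 2, rises numbered 5 and falls 3, and falls were also 3 without IL-4/IL-13 array 1.

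Regulators of Ras and G-protein signalling fell in 12 of 27 cases and rose in 4 (median -0.33), with 7 falls and 2 rises that held. Against the rise of Rasgrp1, its relative Rasgrp3 fell (10.08, 9.98, 8.95 and 9.01, -1.05 ± 0.10), while Rasgrp4 rose by 0.76 ± 0.10 and Rasgrp2 did not pass (-0.27). The receptor kinase gene Grk5 (-1.73 ± 0.12), the arrestin genes Arrb1 (-1.03 ± 0.11) and Arrb2 (-0.85 ± 0.07) and the RGS genes Rgs18 (-0.92 ± 0.08) and Rgs2 (-0.81 ± 0.11) fell, all of which act to end signals from G protein-coupled receptors. Rises numbered 2 without untreated array 2.

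Iron genes fell in 9 of 21 cases and rose in 2 (median -0.19), with 4 falls and 1 rise that held. Beside the ferroportin gene Slc40a1, Hmox1, haem oxygenase 1, read 11.37, 11.31, 9.92 and 9.91 (-1.43 ± 0.08), and the biliverdin reductase genes Blvra (-0.72 ± 0.10) and Blvrb (-0.57 ± 0.07) fell. Tfrc, the transferrin receptor that imports iron, rose (9.08, 8.96, 10.31 and 10.25, 1.26 ± 0.12). Falls numbered 4 without untreated array 1, and rises 1 without untreated array 2.

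Lipid mediator genes fell in 9 of 23 cases and rose in 5 (median 0.03), against 12.3% and 7.83% of all genes. Hpgds, haematopoietic prostaglandin D synthase, read 11.27, 11.37, 9.42 and 9.31 (-1.96 ± 0.09). Pla2g7, which breaks down platelet-activating factor (-0.97 ± 0.09), and the leukotriene receptor gene Cysltr1 (-0.86 ± 0.11) fell. Ptgir, the prostacyclin receptor, rose by 1.44 ± 0.11, and Alox15, an enzyme known from IL-4-treated macrophages, did not pass (5.25, 5.51, 5.46 and 5.69, adjusted p = 0.364). Falls numbered 5 without IL-4/IL-13 array 2.

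Sterol and LXR target genes showed 2 of 21 up and 5 down (median -0.05), against 7.83% and 12.3% of all genes. Ch25h, cholesterol 25-hydroxylase, rose (6.12, 6.20, 7.75 and 7.68, 1.56 ± 0.09), and the cholesterol exporter genes moved apart, with Abcg1 up (0.65 ± 0.08) and Abca1 down (11.32, 11.30, 10.05 and 10.08, -1.25 ± 0.08). The LXR alpha gene Nr1h3 (-0.71 ± 0.11) and Mylip (-1.20 ± 0.08) fell. Falls numbered 3 without each of the 4 arrays.

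Genes of energy metabolism were called in 33.3% of the fatty acid list, 10.5% of the TCA cycle list and 40% of the glycolysis list, against 20.2% of all genes. All 24, 19 and 20 measured genes of these lists lay above the median signal of all genes in untreated cells. Calls were more common among brighter genes, so 20.2% is a low yardstick for them. Of 24 genes of fatty acid oxidation and mitochondrial biogenesis 1 rose, Hadhb (0.59 ± 0.11), and 7 fell (median -0.25), with Fabp5 (-1.13 ± 0.09) and Cpt1a (-0.45 ± 0.08) the falls that held. Of 19 TCA cycle genes 2 rose and neither held, with 0 rises left without any 1 of the 4 arrays. Of 20 genes of glycolysis and the pentose phosphate pathway 3 rose and 5 fell (median -0.10). The glucose transporter gene Slc2a1 rose (0.61 ± 0.08), the regulator gene Pfkfb3 fell (8.19, 8.18, 7.17 and 6.88, -1.16 ± 0.10) and Taldo1 fell by 0.48 on the log2 scale. In the fatty acid list falls numbered 3 or 4 without each of the 4 arrays, and in glycolysis 1 rise and 2 or 3 falls were left.

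Cell cycle and replication genes had 0 of 34 up and 11 down (median -0.26), of which 3 held, and 0 were higher at an unadjusted p under 0.05 in limma. The cyclin-dependent kinase gene Cdk6 (9.75, 9.85, 9.04 and 9.12, -0.72 ± 0.10), the inhibitor gene Cdkn1b (-0.58 ± 0.10) and Mcm7, a subunit of the replicative helicase (-0.47 ± 0.10), were those that held. Mki67 (-0.30), Top2a (-0.32) and Pcna (0.02) did not pass. Falls numbered 5 without untreated array 2, 7 without IL-4/IL-13 array 1 and 4 without IL-4/IL-13 array 2.

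**Figure D4:**
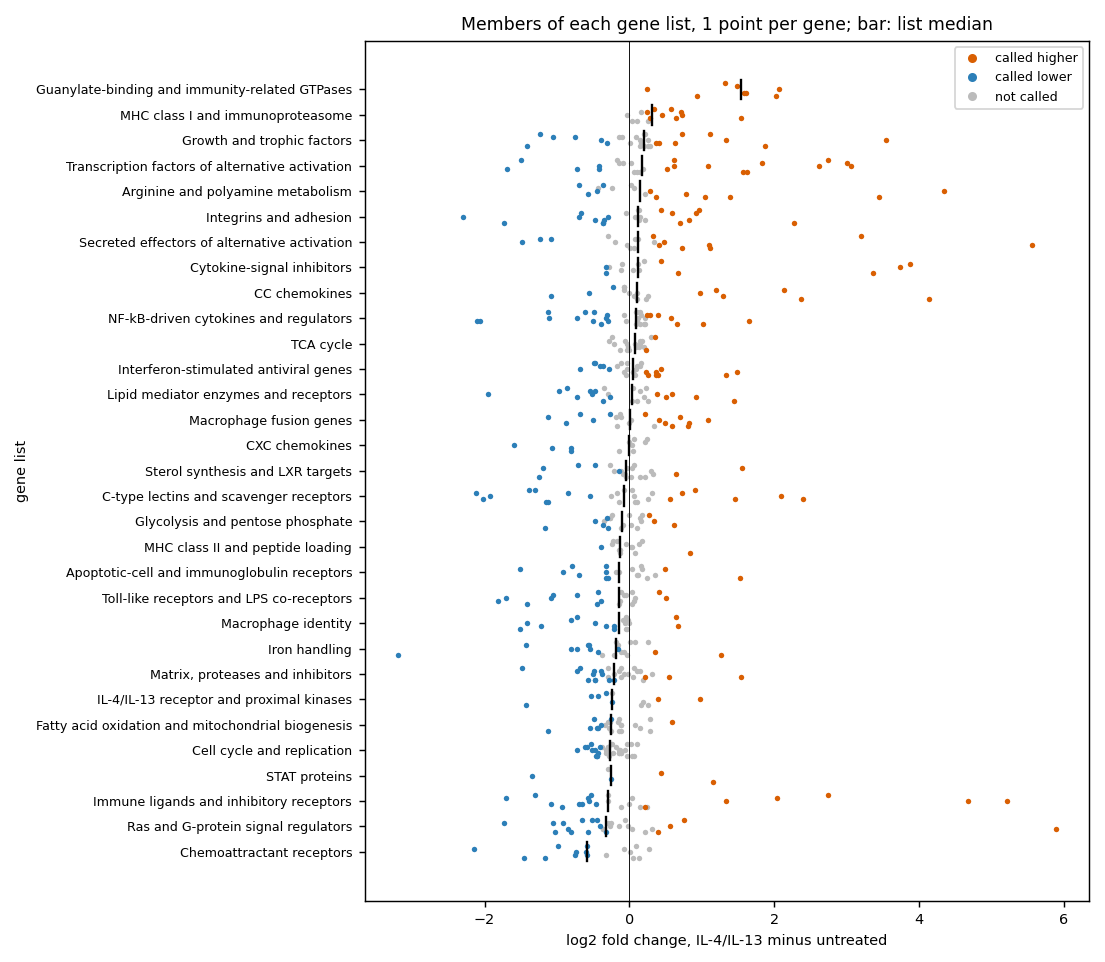
Log2 fold change, IL-4/IL-13 minus untreated, of every measured member of 31 gene lists, ordered by list median (bar), 1 point per gene coloured by call. The guanylate-binding and immunity-related GTPases stand at a median of 1.53 and the chemoattractant receptors at -0.58, while most other lists hold members on both sides of 0.

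Macrophage identity genes were bright in all arrays. All 18 identity genes lay above the median signal of all genes in untreated cells. Csf1r, the receptor of the macrophage growth factor (12.97, 12.91, 12.85 and 12.91), Adgre1, F4/80 (12.87, 12.89, 12.81 and 12.86), and Cd68 (12.82, 12.79, 12.78 and 12.75) did not pass. Of the 18 genes 9 fell and 2 rose (median -0.15), against 12.3% and 7.83% of all genes. The falls included Cd14, Mertk, Adgre4 (-1.22 ± 0.10) and Cd33 (-0.81 ± 0.13).

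Markers of other cell types were called in 21.4% of dendritic cell, 18.8% of neutrophil, 33.3% of T and NK, 14.3% of fibroblast and 6.67% of mast cell, basophil and eosinophil genes, against 20.2% of all genes. The mean of the 14 dendritic cell markers was 5.76 and 5.84 in untreated and 6.08 and 6.14 in treated arrays, with 3 above the all-gene median, 3 called higher, Batf3, Kmo (1.09 ± 0.11) and Cd209a (0.56 ± 0.11), and Flt3 not passing (0.45). The 16 neutrophil markers averaged 6.40 to 6.41 and then 6.50 in both treated arrays. Csf3r, the G-CSF receptor, rose (9.85, 9.68, 11.02 and 11.05, 1.27 ± 0.07), 1 other marker rose, 1 fell, and neither held, and S100a8 did not pass (0.07).

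The 15 mast cell, basophil and eosinophil markers averaged 5.14 to 5.15 and then 5.30 to 5.34, with only Hdc, which makes histamine, called (1.21 ± 0.13). The 12 T and NK markers averaged 5.19 to 5.22 and then 5.37 to 5.43, with 3 called higher, of which Gata3 held (1.02 ± 0.16), and Cd4 lower (-0.89 ± 0.10). The 9 B cell markers averaged 5.42 to 5.45 and then 5.51 to 5.55, and the 8 erythroid and megakaryocyte markers 6.24 and then 6.28 to 6.37, with 0 calls in limma in either (at an unadjusted p under 0.05, 0 B cell genes, and 3 erythroid and megakaryocyte genes higher and 1 lower). Among 14 fibroblast markers, which averaged 6.96 to 6.97 and then 6.89 to 6.98, 2 fell, and Acta2 held (-0.54 ± 0.08). The list means were slightly higher in treated arrays for all but the fibroblast markers, as was the median of the dim genes, and their part in the results was not tested.

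Set directly against the other treatments, some of the raised genes were highest under IL-4/IL-13 and others were higher still in the groups given LPS. IL-4/IL-13 differed from IFN-gamma/LPS in 8302 genes, 41.6% of those tested (5205 or 26.1% higher, 3097 or 15.5% lower under IL-4/IL-13). Adding LPS to IL-4/IL-13 changed 7319 genes, 36.7% (2815 or 14.1% higher, 4504 or 22.6% lower). Of the 213 genes raised at least 2-fold over untreated, 136 stood above IFN-gamma/LPS (63.8%) and 60 below it. With LPS added, 91 of them were higher still (42.7%) and 100 lower (46.9%). These counts share the IL-4/IL-13 arrays with the comparison against untreated, which chose the 213 genes.

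A total of 544 genes (2.73%) were higher under IL-4/IL-13 than in each of the other 3 groups, 93 of them at least 2-fold above untreated. Retnla led, with 4.99 and 4.29 under IFN-gamma/LPS and 4.39 and 4.60 under LPS/IL-4/IL-13, near the untreated 4.67 and 4.70. Irf4 read 6.11 and 5.89 under IFN-gamma/LPS and 6.26 and 5.96 under LPS/IL-4/IL-13 against 9.65 and 9.59 under IL-4/IL-13. Mgl2 (8.62 and 8.25) and Pecam1 (9.27 and 8.98) were likewise highest under IL-4/IL-13, with all arrays of the other 3 groups at or below 6.86. Adding LPS lowered Retnla by 5.75 ± 0.19 and Irf4 by 3.51 ± 0.15 on the log2 scale.

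The other top genes varied in how they stood in the groups given LPS. Arg1 read 5.37 and 5.45 under IFN-gamma/LPS and 10.72 and 10.38 under LPS/IL-4/IL-13, above IL-4/IL-13 alone by 2.03 ± 0.12. Slc7a2 read 11.40 and 11.40 under IFN-gamma/LPS and 12.51 and 12.43 under LPS/IL-4/IL-13, both above IL-4/IL-13. Pdcd1lg2 was higher with LPS added by 0.56 ± 0.11, and Rasgrp1 lower by 1.00 ± 0.12. Socs1 read 10.40 and 10.56 under IFN-gamma/LPS and 10.18 and 10.42 under LPS/IL-4/IL-13, against 10.28 in both IL-4/IL-13 arrays. It was not called in either comparison, so its high level was shared by all treated groups.

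Genes lower under IL-4/IL-13 than in all 3 other groups numbered 653 (3.28%), 107 of them at least 2-fold below untreated. Il1b read 12.41 and 12.48 under IFN-gamma/LPS and 12.54 in both LPS/IL-4/IL-13 arrays, against 5.62 and 6.03 under IL-4/IL-13. Clec4d (11.38 and 11.23, then 11.50 and 11.35) stood close to untreated levels in both LPS groups. Slc40a1 went further down in them, to 5.60 and 5.54 and to 5.19 and 4.98, while Ccr2 stood at 8.37 and 8.33 and at 8.11 and 7.72, between untreated and IL-4/IL-13.

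**Figure D5:**
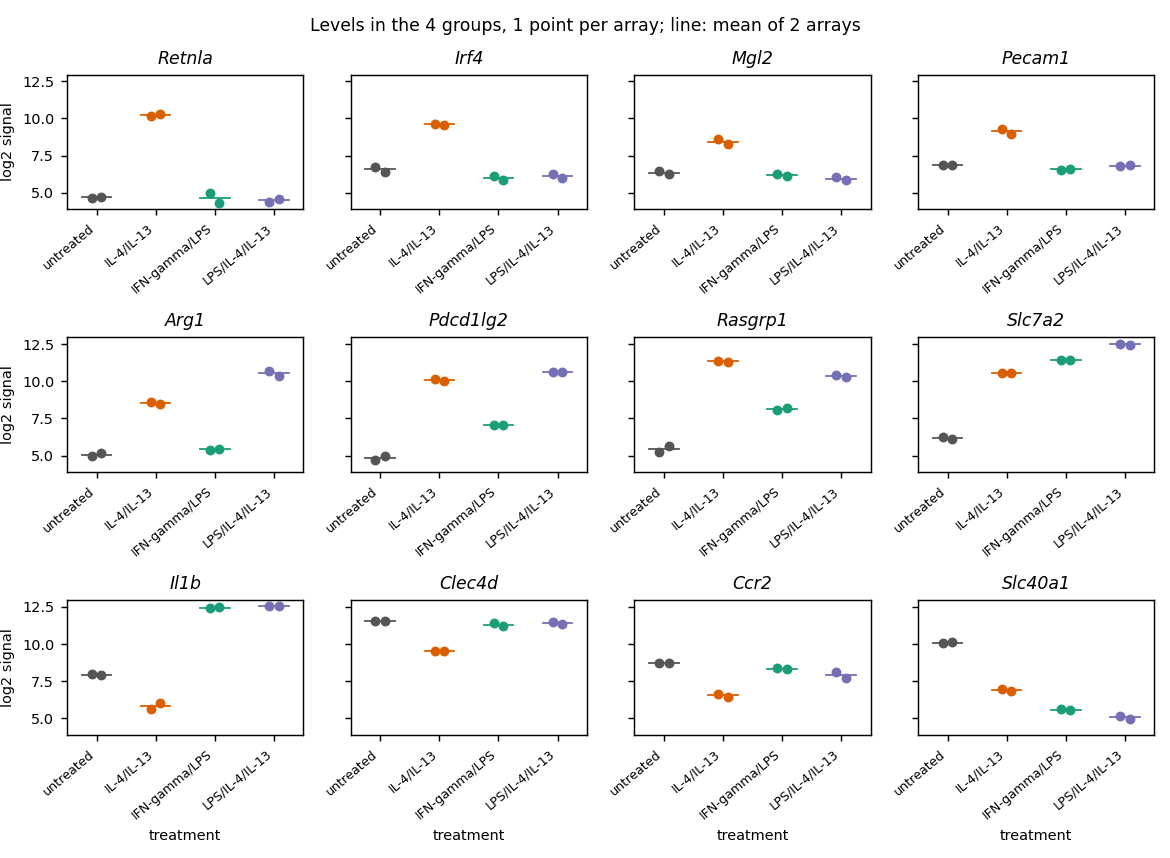
Log2 signal of 12 genes in the 4 groups, 1 point per array with a line at the mean of 2 arrays. Retnla, Irf4, Mgl2 and Pecam1 are high in IL-4/IL-13 arrays alone, Arg1 and Slc7a2 are higher still with LPS added, and Il1b is lowest under IL-4/IL-13.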

How the data were processed

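Total RNA of 8 samples was measured on 1 array each, per the labels. The deposited values, 1.46 to 13.71 with medians of 6.12 to 6.20 per array, were taken as log2 signal from their range, although the labels name the column a MAS5 signal. The sources used here do not give the background correction and normalization. Of 35556 probe sets, 21789 carried 1 symbol in the platform annotation. Limma 3.58.1 in R 4.3.3 fitted 1 mean per group over all 8 arrays (eBayes with trend, 4 residual and 7.55 prior degrees of freedom), with direct contrasts between treatments. The fit was tested on simulated data. The text names the 15 largest called changes in each direction whose groups did not overlap (38.3% of all genes lay apart upward, 26.7% downward), leaving out predicted genes and small RNAs, and, from each of 38 gene lists, up to 8 called members of largest change and up to 3 uncalled ones, plus listed activation markers; up to 5 genes per pair of treated groups. Others were picked after their values were seen. The lists held 743 genes, of which 673 were measured; the members and lists were chosen with earlier results of these data known. Alternatives were quantile normalization, median centring, the 4 arrays alone, a filter at the 40th percentile, no variance trend, the mean over probe sets, the replicate number as a block and leaving out each array. Probe sets with several symbols or none entered no comparison of named genes. Further probe sets of a named gene entered only the mean over probe sets and the changes given for them. Gene starts and promoters are from RefSeq, GRCm38.p6.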

Additional observations from a re-analysis of the deposited data

Results flagged for a closer look

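Some probe sets that no comparison of the report used were higher with IL-4/IL-13 than untreated. Among probe sets with several gene symbols, 10496592 read 7.35 and 7.46 in untreated and 10.04 and 10.11 in IL-4/IL-13 arrays (2.67 ± 0.06, limma adjusted p = 1.46e-06), and 10385518 read 8.40, 8.20, 10.78 and 10.67 (2.43 ± 0.08). Among those with no listed symbol, 10398039 read 4.51, 4.69, 8.68 and 8.77 (4.13 ± 0.09) and 10409276 read 6.18, 6.03, 9.08 and 8.96 (2.92 ± 0.15). They were singled out because a change appeared in data outside the comparison of named genes. The SE, adjusted p and calls given here came from a separate limma fit over all 35556 probe sets. Its Benjamini-Hochberg adjustment was over all of them, so these counts cannot be set beside those of named genes. Of the 1621 probe sets with several symbols 39 were higher and 85 lower, and of the 12146 with none 306 were higher and 506 lower. At 2-fold or more these were 13 higher and 8 lower with several symbols, and 30 higher and 150 lower with none.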

How the results depend on the processing

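Leaving out each array in turn gave 2063 to 2821 called genes, 806 to 1005 higher and 1257 to 1816 lower, against 4020, 1561 and 2459. With only the 4 arrays compared, 2455 genes were higher. The other settings kept the counts within 1.5 times. The replicate block gave 3978 calls (1560 higher, 2418 lower) and shared 3817 with the fit without it; same-numbered arrays of the 2 groups had deviations correlated at 0.12, and the labels do not say that a number marks a shared culture or day. Quantile normalization gave 3848 calls and centring 3705, with 43.8% and 31.8% of calls upward against 38.8%. For the comparison with IFN-gamma/LPS these settings gave 8428 and 8187 calls and for added LPS 7414 and 7090. The changes of 685 named genes, called or not, were recomputed. Among them 16 lost their call under centring, 19 under quantile normalization, 42 without a variance trend and 7 with the block. More lost it without 1 array, where a group was left with a single array. Only called genes can lose a call, so these numbers are not shares of 685. The direction of a called gene was kept in each of these settings except for 4 genes under the mean over probe sets. Calls of small changes were therefore the least secure, and with no detection calls the signal gives no level of absence.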

Other observations

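Genes of protein folding in the endoplasmic reticulum, picked after their values were seen, rose in 13 of 22 measured cases with 0 falls in limma, also at an unadjusted p under 0.05 (median 0.34), and 8 rises held. Pdia4, a protein disulfide isomerase, rose by 1.83 ± 0.09 and Xbp1, a factor of the unfolded protein response, by 1.02 ± 0.09 (11.00, 11.00, 12.08 and 11.95). Hyou1 (0.85 ± 0.10) and Manf (0.84 ± 0.10) followed. Nucleotide genes picked the same way rose in 7 of 28 cases and fell in 2. Prps1, which makes the ribose precursor of nucleotides, read 7.35, 7.36, 10.79 and 10.66 (3.37 ± 0.11), and Uck2, uridine-cytidine kinase, 7.38, 7.33, 10.16 and 10.01 (2.73 ± 0.13). Both were higher under IL-4/IL-13 than in each of the other 3 groups. Uck2 and Pdia4 had 2 probe sets each, and only the one of higher mean signal is given. Dck, deoxycytidine kinase, rose by 2.07 ± 0.10. Ribosome biogenesis genes rose in 10 of 23 cases and fell in 2 (median 0.31), with 5 rises and 0 falls that held. The rises that held included Ddx21 (0.95 ± 0.11) and Bop1 (0.78 ± 0.09). Beside the counts of these lists, 7.83% of all genes rose and 12.3% fell.

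Neighbouring genes on chromosome 16 rose, and were also picked after their values were seen. Mir99a read 7.77, 7.43, 10.01 and 9.78 (4.91-fold), its neighbour Mirlet7c-1 6.89, 6.56, 8.78 and 8.51 (3.78-fold), and the long noncoding RNA gene Mir99ahg 9.12, 8.89, 10.61 and 10.45 (2.88-fold), all holding without each array. Each was lower when LPS was added. Mir99ahg had 4 probe sets, and only the one of highest mean signal is given. In the RefSeq table Mir99ahg ends upstream of both microRNA genes and does not contain them. The array probes longer transcripts and gives no level of the mature microRNA. The mature sequences are shown with the seed (bases 2 to 8) in capitals, from RefSeq, GRCm38.p6, at chr16:77598940-77598961 and chr16:77599672-77599693, both + strand.
mmu-miR-99a-5p: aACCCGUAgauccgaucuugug
mmu-let-7c-5p: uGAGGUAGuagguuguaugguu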
